A study of Homo sapiens with 27 samples.

Results

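The 56 genes described here encode the machinery of G2 and mitosis: the mitotic cyclins and their kinase, the kinases of the spindle and centrosome, the kinetochore, the kinesins, condensin, and the partners of the anaphase-promoting complex (APC/C). They were taken by gene symbol from a table of 20268 protein-coding genes, and all 56 were found in it. Membership follows known function, gene by gene, with no threshold on the values of the table. The genes were chosen with earlier results of these data known. Each member was above 2 CPM (counts scaled to the size of the library) in all 27 libraries, so none was lost to the filter on low counts.

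Cells enter mitosis when cyclin B and CDK1 become active, and they leave it when APC/C, helped by CDC20, marks cyclin B and securin for destruction. Most of the mRNAs for this machinery are controlled by FOXM1, MYBL2 and the DREAM and MuvB complexes acting on short promoter elements. They rise in G2 and mitosis. For this reason these mRNAs are widely used as markers of dividing cells.

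RNA was sequenced from 3 human prostate cancer cell lines. LNCaP is a hormone-sensitive line, LNCaP95 is its hormone-insensitive derivative, and 22Rv1 is a hormone-insensitive line that arose from a xenograft. In every line, lentivirus delivered a control hairpin, named CTRL sh, or 1 of 2 that target CPSF1, named CPSF1 sh1 and CPSF1 sh2. Infected cells were selected with puromycin, expanded as populations, plated at 500000 per well and cultured for 72 h. CPSF1 encodes a subunit of the complex that recognises poly(A) signals and cuts pre-mRNA. LNCaP and 22Rv1 cells were kept in RPMI medium with 10% serum, and LNCaP95 cells in a phenol red-free form of it with 10% serum. In comparisons with LNCaP95, cell line and medium therefore cannot be told apart. Each of the 9 groups held 3 libraries. They are named biological replicates, and the sources used here do not say whether they came from separate infections, so p-values measure the spread between these libraries.

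A RefSeq promoter window of 300 bases, from 250 before to 50 after the start of the gene, was at hand for 48 of the 56 members. AURKA, TTK, FOXM1, BUB3, BIRC5, TPX2, RACGAP1 and UBE2C had no entry. The cell cycle genes homology region (CHR), searched as TTTGAA on both strands, was in the window of 33 of these 48 members (68.8%) and in 15.2% of all 35116 promoters of the table. CCAAT, the letters bound by NF-Y, was in 36 members (75%) and in 34.6% of all promoters, and both motifs were in 54.2% and 5.9%. In 29 of the 33 members the CHR letters began within 100 bases before or 50 bases after the start. The stretches of 30 bases below were picked only among members with the CHR letters. They come from 3 members that were lower in every line, 3 that moved in opposite directions in LNCaP and LNCaP95, the kinesin and the separase described further on, and 2 classical markers. Other members with the same patterns had no CHR letters in their window: NEK2 and CENPE, lower in every line, and UBE2S, which moved in opposite directions. The stretches are written 5′ to 3′ along the strand of the gene, from RefSeq (GRCh38.p14), with the CHR letters in capitals.
CCNB2: agcgacgcggtaTTTGAAtcctggaacaag
HMMR: gggagatttgaaTTTGAAaccggtagggag
DLGAP5: cggtgcggcaagTTTGAAtttcgtggaggc
CDC20: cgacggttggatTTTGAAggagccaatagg
PLK1: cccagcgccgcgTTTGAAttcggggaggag
CDCA8: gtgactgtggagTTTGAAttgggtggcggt
KIF18A: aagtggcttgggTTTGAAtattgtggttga
ESPL1: cagccgcggataTTTGAAaggagggtctgg
CDK1: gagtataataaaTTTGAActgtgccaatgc
MKI67: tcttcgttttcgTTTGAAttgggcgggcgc
By exact match to GRCh37, the build of the deposited table, these stretches lie at chr15:59397304-59397333 (CCNB2), chr5:162887604-162887633 (HMMR), chr14:55658283-55658312 (DLGAP5, minus strand), chr1:43824575-43824604 (CDC20), chr16:23690169-23690198 (PLK1), chr1:38158153-38158182 (CDCA8), chr11:28129696-28129725 (KIF18A, minus strand), chr12:53662040-53662069 (ESPL1), chr10:62537916-62537945 (CDK1) and chr10:129924699-129924728 (MKI67, minus strand). The motif began 29 bases before the start in CCNB2, PLK1 and MKI67, 65 before it in CDC20 and 161 before it in CDK1. In HMMR the same letters stood once more directly before the capitals. CCAAT was also searched on both strands, and its reverse, ATTGG, can share 1 base with the CHR letters, as it did in CDCA8 and MKI67. A match of letters is a description of the window and does not show that a factor is bound there.

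The libraries held 8515624 to 15904518 gene counts each (median 11058723). The hairpins lowered CPSF1 mRNA, with log2 fold changes (log2FC) of -0.65 (SE 0.056, adjusted p = 1.68e-07) in LNCaP, -0.89 (SE 0.079, adjusted p = 1.31e-06) in LNCaP95 and -0.50 (SE 0.062, adjusted p = 9.66e-05) in 22Rv1 cells, from edgeR. In all 3 lines the 6 CPSF1 sh libraries lay below the 3 CTRL sh libraries. The 9 markers of prostate luminal epithelium summed to between 3052 and 6020 CPM per library. The 3 basal markers stayed at or below 6.39 CPM and the 3 leukocyte markers at or below 1.69 CPM. The 3 fibroblast markers summed to 12.03 to 76.2 CPM, and the endothelial marker VWF reached 28.7 CPM in LNCaP, and their part in the results below was not tested. VWF was lower with CPSF1 sh in LNCaP cells (log2FC -1.23, SE 0.099, adjusted p = 9.45e-08), as was COL1A1 in LNCaP (log2FC -0.71, SE 0.085, adjusted p = 5.28e-06) and LNCaP95 (log2FC -0.40, SE 0.11, adjusted p = 0.00502). Among the luminal markers, KLK3, which encodes PSA, had the largest fall in LNCaP (log2FC -1.62, SE 0.059, adjusted p = 3.32e-11) and LNCaP95 (log2FC -0.95, SE 0.062, adjusted p = 1.34e-07) and the largest rise in 22Rv1 (log2FC 0.42, SE 0.067, adjusted p = 5.21e-04). KRT8 had the largest rise in LNCaP (log2FC 0.38, SE 0.059, adjusted p = 5.97e-05), HOXB13 in LNCaP95 (log2FC 0.27, SE 0.044, adjusted p = 1.59e-04), and KRT18 the largest fall in 22Rv1 (log2FC -0.17, SE 0.056, adjusted p = 0.0416). The part of these markers in the results was not tested.

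With CPSF1 knockdown, most of the mitotic genes were lower in LNCaP95 cells. In LNCaP cells they were called in both directions with hairpins pooled, and the 2 hairpins differed, as described below. In 22Rv1 cells most had no call, as was the case for most genes at large. In LNCaP95, 44 of the 56 members were lower and 5 were higher with CPSF1 sh at an adjusted p-value below 0.05, against 33.7% and 33.2% of all 11143 genes tested. The share of members called lower was 78.6%. Their median log2 fold change was -0.39, beside 0.0013 over all tested genes. In LNCaP, 18 members were lower and 11 were higher (32.1% and 19.6%), beside 31.0% and 31.1% of all 11096 genes, with a median of -0.067 beside -0.00036. The count of members lower in LNCaP was thus near that of genes at large. In 22Rv1, 10 members were lower and 2 were higher (17.9% and 3.57%), beside 14.3% and 12.7% of all 11728 genes, with a median of -0.057 beside -0.0024. In bulk RNA, fewer cells in G2 and mitosis and less of each mRNA per cell cannot be told apart.

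These counts did not rest equally firmly on the libraries. In LNCaP, the 11 members called higher became 6 without CTRL sh replicate 3 and 7 without CPSF1 sh2 replicate 2, and the median moved to -0.11 without CPSF1 sh2 replicate 3. In 22Rv1, the 10 called lower became 6 without CTRL sh replicate 2 and 6 without CTRL sh replicate 3. The 2 called higher there became 5 without CPSF1 sh1 replicate 3 and 1 without any other single library except CPSF1 sh2 replicate 3. The median in 22Rv1 was -0.027 without CTRL sh replicate 1 and -0.031 without CPSF1 sh2 replicate 2. Scaling by library size alone, without TMM, shifted LNCaP95 upward as a whole, to 4685 genes higher and 2850 lower in place of 3694 and 3756. The median of all genes was then 0.088, the members' median was -0.30, and 42 members were called lower.

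The mean level of the 56 members in each library, on the log2(CPM + 0.5) scale and relative to the CTRL sh mean of the line, was also taken. In LNCaP95 it was -0.33, -0.32 and -0.31 in the CPSF1 sh1 libraries and -0.40, -0.42 and -0.39 in the CPSF1 sh2 libraries, with the controls between -0.012 and 0.017. In LNCaP it was -0.21, -0.22 and -0.11 with CPSF1 sh1 and 0.039, -0.00023 and 0.021 with CPSF1 sh2, with the controls between -0.019 and 0.021. In 22Rv1 it was -0.0041, -0.033 and -0.063 with CPSF1 sh1 and -0.11, -0.11 and -0.10 with CPSF1 sh2. The LNCaP sh2 libraries overlapped the controls, and those of CPSF1 sh1 lay below them. Both hairpins lay below the controls in LNCaP95, and in 22Rv1 this held for CPSF1 sh2, while 1 of the 3 CPSF1 sh1 libraries lay within the range of the controls.

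**Figure D1:**
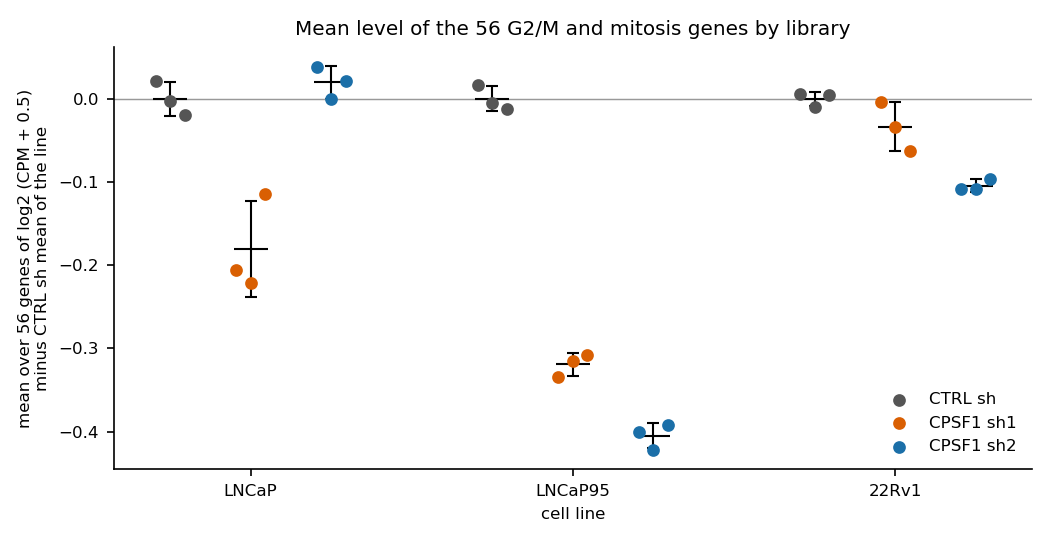
Mean over the 56 genes of log2(CPM + 0.5), minus the CTRL sh mean of the same line, for each of the 27 libraries (points), with the mean and SD of each group of 3 (black). The 6 LNCaP95 knockdown libraries sit between -0.42 and -0.31, the LNCaP CPSF1 sh2 libraries overlap their controls, and no 22Rv1 library is below -0.11.

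Reading across lines, 6 members were lower in all 3 (CCNB2, NEK2, BUB3, CENPE, HMMR and DLGAP5), beside 4.90% of the 10317 genes tested in every line, and 0 were higher in all 3, beside 3.85%, which was also the count at an unadjusted p-value below 0.05 in edgeR and at an adjusted one in DESeq2. The calls of CCNB2 and DLGAP5 were kept in all lines in every alternative setting short of the 2-fold condition, while NEK2, CENPE and HMMR lost theirs in 22Rv1, and BUB3 in LNCaP, in at least 1. HMMR and DLGAP5 belong to the list of falling genes that the study built on these same libraries, so that list is no independent evidence for them. A further 11 were lower in LNCaP and LNCaP95 but not called in 22Rv1, beside 11.2% of all genes: AURKB, BUB1, NUF2, CENPA, CENPF, KIF11, NUSAP1, ASPM, PRC1, ECT2 and PTTG1. Of these, CENPA and KIF11 lost their call in LNCaP in at least 1 alternative setting. Another 9 were higher in LNCaP and lower in LNCaP95, beside 4.89% of all genes: PLK1, AURKA, NDC80, INCENP, CDCA8, TPX2, ANLN, CDC20 and UBE2S. In LNCaP, NDC80, INCENP, TPX2 and UBE2S lost this call in at least 1 setting, and ANLN lost its call in LNCaP95. In LNCaP95 alone, 16 were called lower, beside 9.86% of all genes, among them CDK1, CCNB1, TTK and TOP2A. MAD2L1, SPC24, SPC25, MKI67 and NCAPD2 were called in no line, beside 11.5% of all genes. At a change of more than 2-fold with the same adjusted p-value, CDC20 in LNCaP95 was the 1 member left.

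**Figure D2:**
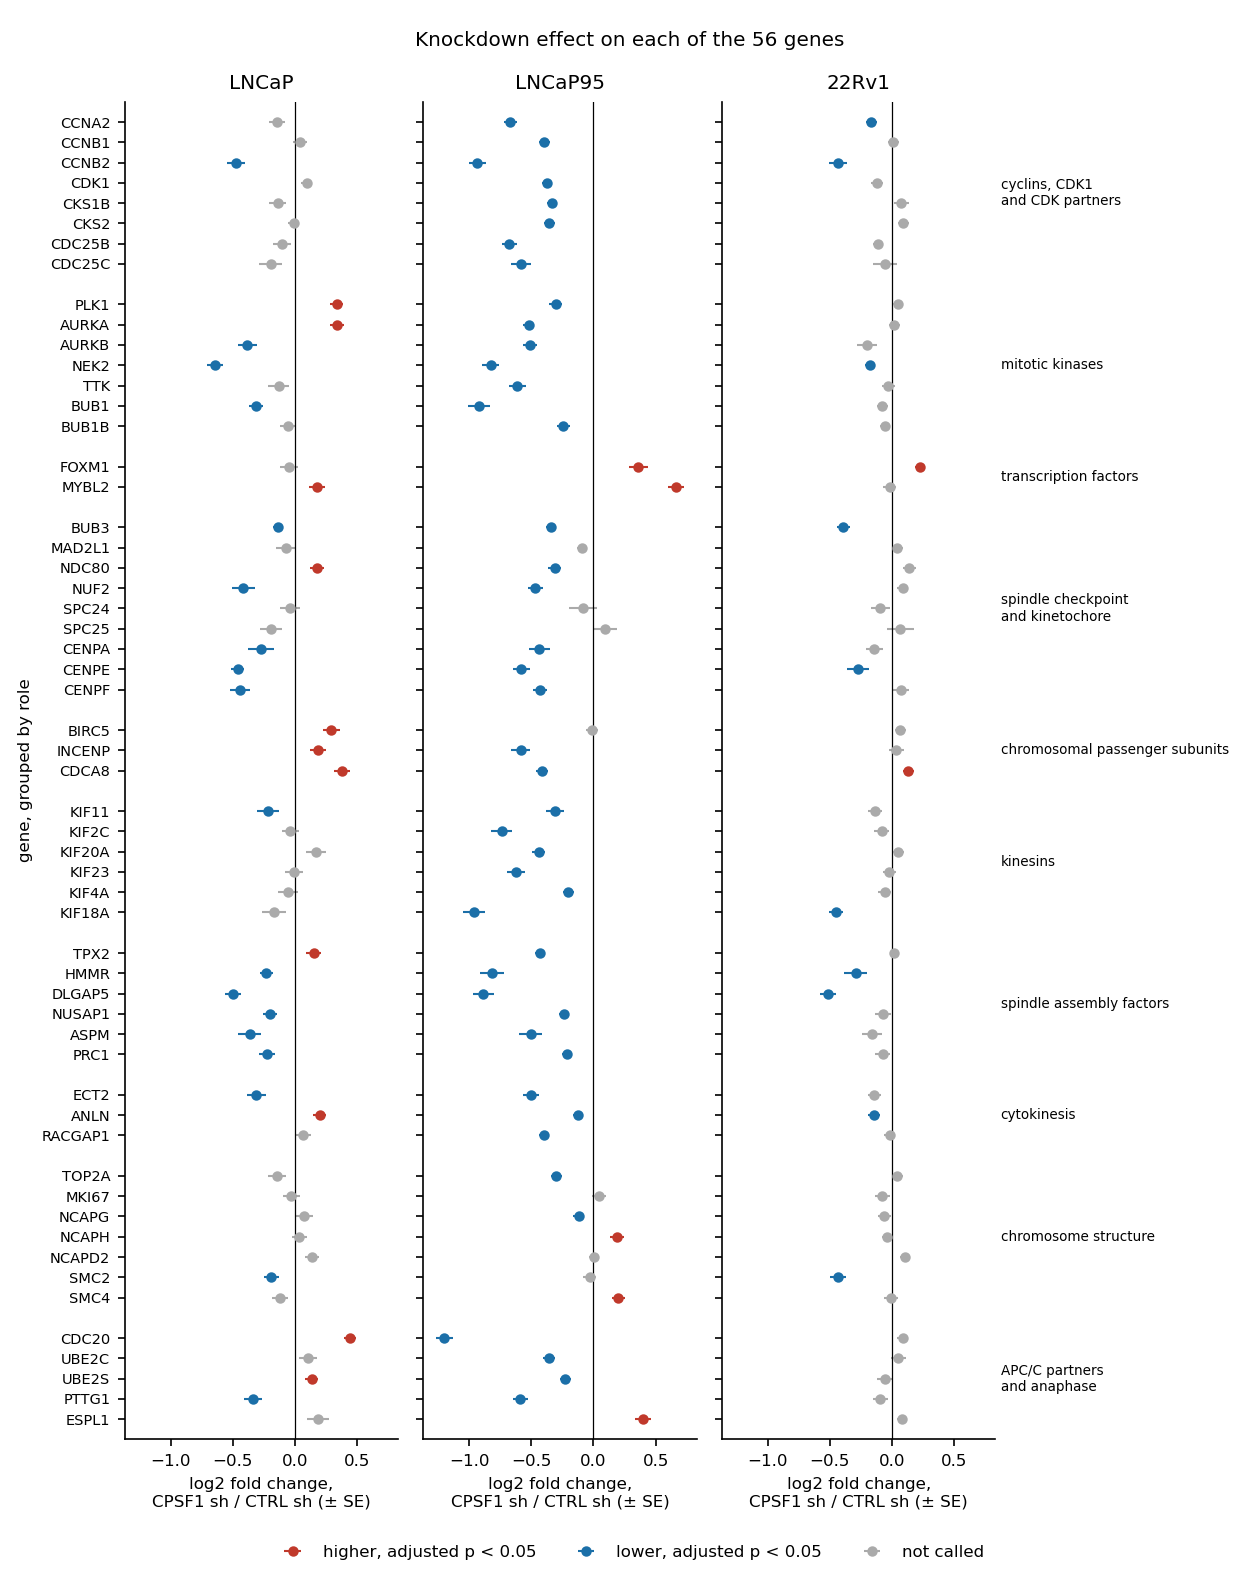
Log2 fold change of each of the 56 genes with CPSF1 sh against CTRL sh (points, with the standard error), in LNCaP, LNCaP95 and 22Rv1 cells, grouped by role and coloured by call. In LNCaP95, 44 genes are called lower and the 5 called higher include both transcription factors, while LNCaP has genes on both sides and 22Rv1 has 44 genes with no call.

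In the values below, levels are in TMM-normalised CPM of the line, and log2FC is that of CPSF1 sh against CTRL sh with its standard error (SE) and edgeR's adjusted p-value. Counts by role are small and are to be read beside the shares of all genes tested. These were 33.7% lower and 33.2% higher in LNCaP95, 31.0% and 31.1% in LNCaP, and 14.3% and 12.7% in 22Rv1. Among the cyclins, CDK1 and the partners of CDK1, all 8 were lower in LNCaP95, with a median of -0.49, 2 in 22Rv1 and 1 in LNCaP. CCNB2 encodes cyclin B2, 1 of the activating subunits of CDK1. It stood at 79.9, 81.1 and 79.1 CPM in the LNCaP controls and from 48.7 to 64.8 CPM (median 57.8) in the 6 knockdown libraries (log2FC -0.47, SE 0.071, adjusted p = 4.32e-05). In LNCaP95 the controls were at 134, 129.7 and 131 CPM and the knockdown libraries from 62.0 to 75.3 CPM (median 68.4, log2FC -0.93, SE 0.066, adjusted p = 2.50e-07). In 22Rv1 they were at 114, 127 and 112 CPM with CTRL sh and from 75.8 to 96.1 CPM with CPSF1 sh (median 87.1, log2FC -0.44, SE 0.073, adjusted p = 6.89e-04). All 6 knockdown libraries were below all 3 controls in each line. CCNB1 encodes cyclin B1. Its LNCaP95 controls were at 275, 266 and 271 CPM and its knockdown libraries from 195 to 215 CPM (median 209, log2FC -0.39, SE 0.043, adjusted p = 6.01e-06), with no overlap. In LNCaP (log2FC 0.041, adjusted p = 0.521) and 22Rv1 (log2FC 0.011, adjusted p = 0.873) it did not pass the test, and the groups overlapped.

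CDK1, the kinase that drives entry into mitosis, fell in LNCaP95 from 376, 401 and 406 CPM in the controls to a range from 293 to 318 CPM (median 304, log2FC -0.38, SE 0.041, adjusted p = 6.70e-06). In LNCaP the controls were at 208, 216 and 214 CPM and the knockdown libraries from 211 to 248 CPM (median 224, log2FC 0.10, adjusted p = 0.0752). In 22Rv1 they were at 176, 173.1 and 190.0 CPM with CTRL sh and from 152 to 174 CPM with CPSF1 sh (median 167, log2FC -0.12, adjusted p = 0.0812). The groups overlapped in both. CCNA2, cyclin A2, was lower in LNCaP95 (log2FC -0.67, SE 0.052, adjusted p = 4.69e-07) and 22Rv1 (log2FC -0.17, SE 0.042, adjusted p = 0.00995). Its 22Rv1 call was lost in at least 1 alternative setting. CDC25B and CDC25C, the phosphatases that switch CDK1 on, were lower in LNCaP95, with log2FC of -0.68 and -0.58. CKS2, a small CDK-binding subunit, was lower there (log2FC -0.35). Its paralogue CKS1B was at 138, 128 and 129.9 CPM in the LNCaP95 controls and from 103 to 107 CPM (median 104.5) in the knockdown libraries (log2FC -0.33, SE 0.041, adjusted p = 1.58e-05), with no overlap. In LNCaP it was at 44.2, 41.6 and 43.0 CPM with CTRL sh and from 32.7 to 42.0 CPM with CPSF1 sh (median 40.2), and in 22Rv1 at 117, 115 and 127 CPM with CTRL sh and from 113 to 139.9 CPM with CPSF1 sh (median 127), with overlap and no call in either. The CKS1B row of the table covers exons on 2 chromosomes, so reads of near-identical copies may be counted with it.

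The 7 mitotic kinases were all lower in LNCaP95 (median -0.52). In LNCaP, NEK2, AURKB and BUB1 were lower while PLK1 and AURKA were higher, and in 22Rv1 NEK2 was the 1 kinase called. NEK2, a centrosome kinase, had the largest fall of any member in LNCaP, from 60.5, 58.7 and 57.9 CPM to a range from 33.1 to 41.7 CPM (median 37.1, log2FC -0.64, SE 0.063, adjusted p = 5.84e-07). In LNCaP95 the controls were at 131, 134 and 128 CPM and the knockdown libraries from 67.7 to 82.9 CPM (median 72.1, log2FC -0.82, SE 0.068, adjusted p = 7.52e-07). In 22Rv1 they were at 141, 146 and 138 CPM with CTRL sh and from 124 to 129 CPM with CPSF1 sh (median 125, log2FC -0.17, SE 0.04, adjusted p = 0.00551). Its groups did not overlap in any line. BUB1, the checkpoint kinase that protects centromeric cohesion, was at 94.9, 92.7 and 91.1 CPM in the LNCaP controls and from 66.2 to 78.4 CPM (median 77.7) with knockdown (log2FC -0.31, SE 0.054, adjusted p = 1.58e-04). In LNCaP95 it was at 198, 208 and 194 CPM with CTRL sh and from 90.4 to 123 CPM with CPSF1 sh (median 103.7, log2FC -0.92, SE 0.088, adjusted p = 2.31e-06), both without overlap. In 22Rv1 the groups overlapped, at 125, 117 and 122 CPM with CTRL sh and from 109.9 to 121 CPM with CPSF1 sh (median 115).

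PLK1, the polo-like kinase needed for centrosome maturation and for leaving G2, moved in opposite directions. In LNCaP its controls were at 97.9, 101 and 96.9 CPM and its knockdown libraries from 115 to 136 CPM (median 125, log2FC 0.34, SE 0.053, adjusted p = 5.80e-05), all above the controls. In LNCaP95 the controls were at 187, 167 and 182 CPM and the knockdown libraries from 136 to 151 CPM (median 147, log2FC -0.30, SE 0.051, adjusted p = 1.95e-04), all below. In 22Rv1 they overlapped, at 154, 154 and 148 CPM with CTRL sh and from 149.8 to 168 CPM with CPSF1 sh (median 155). AURKA, the centrosomal Aurora kinase, did the same. In LNCaP it was at 59.4, 59.6 and 56.9 CPM in the controls and from 68.2 to 79.8 CPM (median 74.5) with knockdown (log2FC 0.34, SE 0.056, adjusted p = 1.03e-04). In LNCaP95 the gene stood at 164, 159 and 150.4 CPM with CTRL sh and from 106 to 114 CPM with CPSF1 sh (median 110.3, log2FC -0.52, SE 0.045, adjusted p = 1.10e-06), and in 22Rv1 at 86.999, 85.8 and 90.8 CPM with CTRL sh and from 86.0 to 92.0 CPM with CPSF1 sh (median 88.8), with overlap. AURKB, the Aurora kinase of the centromere, was lower in LNCaP (log2FC -0.38, SE 0.076, adjusted p = 4.98e-04) and LNCaP95 (log2FC -0.51, SE 0.057, adjusted p = 7.47e-06). TTK and BUB1B, which signal unattached kinetochores, were lower in LNCaP95, with log2FC of -0.61 and -0.24.

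Both transcription factors were higher in LNCaP95, where 44 other members were lower. MYBL2, the B-Myb subunit that joins MuvB to switch on mitotic genes, had the largest rise of any member there, from 138, 127 and 139.8 CPM to a range from 189.7 to 234 CPM (median 217, log2FC 0.66, SE 0.066, adjusted p = 3.06e-06). In LNCaP its controls were at 117, 115 and 113 CPM and its knockdown libraries from 114 to 146 CPM (median 130.0, log2FC 0.18, SE 0.066, adjusted p = 0.0308), with overlap. There CPSF1 sh1 was at 124, 120 and 114 CPM and CPSF1 sh2 at 146, 136 and 138 CPM, and the pooled call was lost in at least 1 alternative setting. In 22Rv1 MYBL2 was at 145, 145 and 148 CPM with CTRL sh and from 132 to 155 CPM with CPSF1 sh (median 144), with no call. FOXM1, the forkhead factor of G2 genes, rose in LNCaP95 from 244, 235 and 245 CPM to a range from 272 to 357 CPM (median 308, log2FC 0.36, SE 0.077, adjusted p = 0.00118). It also rose in 22Rv1, from 324, 318 and 302 CPM to a range from 357 to 379.6 CPM (median 368, log2FC 0.23, SE 0.039, adjusted p = 8.81e-04), where it had the larger of the 2 rises among members. Neither pair of groups overlapped. In LNCaP its controls were at 192, 192 and 199 CPM, with 171, 162 and 176 CPM for CPSF1 sh1 and 214, 204 and 200.2 CPM for CPSF1 sh2. The hairpins thus lay on opposite sides of the controls, and the pooled log2FC of -0.045 was not called.

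Of the 9 members in the spindle checkpoint and the kinetochore, 6 were lower in LNCaP95 (66.7%, beside 33.7% of all genes). In LNCaP 5 were lower and 1 higher (55.6% and 11.1%, beside 31.0% and 31.1%), and in 22Rv1 2 were lower (22.2%, beside 14.3%). BUB3, the adaptor that brings BUB1 and BUBR1 to kinetochores, was at 184, 174 and 161 CPM in the LNCaP controls and from 150.3 to 161 CPM (median 159) with knockdown (log2FC -0.14, SE 0.042, adjusted p = 0.011). In LNCaP95 it was at 198, 207 and 199 CPM with CTRL sh and from 155 to 166 CPM with CPSF1 sh (median 159, log2FC -0.34, SE 0.04, adjusted p = 1.06e-05). In 22Rv1 it was at 200.4, 202 and 212 CPM with CTRL sh and from 138 to 168 CPM with CPSF1 sh (median 159, log2FC -0.39, SE 0.055, adjusted p = 2.05e-04). The knockdown libraries were below the controls in each line, in LNCaP by less than 1 CPM at the nearest pair. CENPE, the kinesin of the kinetochore, was at 108, 99.5 and 102 CPM in the LNCaP controls and from 67.5 to 81.2 CPM (median 74.5) with knockdown (log2FC -0.46, SE 0.052, adjusted p = 2.73e-06). In LNCaP95 the gene stood at 86.95, 99.6 and 96.8 CPM with CTRL sh and from 57.7 to 68.1 CPM with CPSF1 sh (median 64.3, log2FC -0.58, SE 0.065, adjusted p = 7.65e-06). In 22Rv1 the gene stood at 126, 120.0 and 114 CPM with CTRL sh and from 75.4 to 109 CPM with CPSF1 sh (median 102, log2FC -0.27, SE 0.088, adjusted p = 0.0325), where CPSF1 sh1 replicate 3 gave the lowest value and stood apart from the other knockdown libraries. The groups did not overlap in any line.

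CENPF, a large protein of the outer kinetochore, fell in LNCaP from 269.7, 277 and 258 CPM to a range from 168 to 223 CPM (median 199, log2FC -0.44, SE 0.079, adjusted p = 2.02e-04). It fell in LNCaP95 from 448, 467 and 433 CPM to a range from 312 to 365 CPM (median 333, log2FC -0.43, SE 0.056, adjusted p = 2.59e-05). In 22Rv1 the groups overlapped, at 410.2, 395 and 396 CPM with CTRL sh and from 353 to 449.8 CPM with CPSF1 sh (median 437, log2FC 0.072, adjusted p = 0.423). NUF2 and NDC80 form 1 arm of the complex that grips microtubules, and in LNCaP they parted: NUF2 was lower (log2FC -0.42, SE 0.092, adjusted p = 0.0012) and NDC80 higher (log2FC 0.18, SE 0.059, adjusted p = 0.0162). In LNCaP95 both were lower, with log2FC of -0.47 and -0.31. The other arm, SPC24 and SPC25, was called in no line, and neither was the checkpoint protein MAD2L1. CENPA, the histone of centromeres, was lower in LNCaP (log2FC -0.27) and LNCaP95 (log2FC -0.43).

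Of the chromosomal passenger subunits, BIRC5 or survivin (log2FC 0.29, SE 0.071, adjusted p = 0.00227) and CDCA8 or borealin were higher in LNCaP. INCENP was also called higher there (log2FC 0.18, SE 0.065, adjusted p = 0.0241), but its groups overlapped and the call was lost in several alternatives, among them without CTRL sh replicate 1. These subunits hold Aurora B at centromeres and the midzone, and AURKB itself was lower in the same cells. CDCA8 was at 61.9, 57.2 and 61.9 CPM in the LNCaP controls and from 69.7 to 84.1 CPM (median 78.8) with knockdown (log2FC 0.38, SE 0.065, adjusted p = 1.48e-04). In LNCaP95 it was at 152, 142 and 153 CPM with CTRL sh and from 107 to 122 CPM with CPSF1 sh (median 111, log2FC -0.41, SE 0.049, adjusted p = 1.25e-05). In 22Rv1 it was at 84.8, 87.4 and 90.1 CPM with CTRL sh and from 92.2 to 100.2 CPM with CPSF1 sh (median 95.2, log2FC 0.13, SE 0.047, adjusted p = 0.049). That 22Rv1 call was lost in at least 1 alternative setting. The groups did not overlap in any line, with knockdown above the controls in LNCaP and 22Rv1 and below them in LNCaP95. INCENP was lower in LNCaP95 (log2FC -0.59, SE 0.075, adjusted p = 2.22e-05), and BIRC5 was not called there (log2FC -0.0086).

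All 6 kinesins were lower in LNCaP95, with a median of -0.53. KIF18A, which dampens the movement of chromosomes on the metaphase plate, was at 37.9, 38.9 and 33.0 CPM in the LNCaP95 controls and from 15.7 to 20.8 CPM (median 18.6) with knockdown (log2FC -0.96, SE 0.09, adjusted p = 1.91e-06). In 22Rv1 the gene stood at 38.1, 39.7 and 41.5 CPM with CTRL sh and from 27.8 to 30.3 CPM with CPSF1 sh (median 28.8, log2FC -0.45, SE 0.058, adjusted p = 1.10e-04), with no overlap in either line. In LNCaP it was the member with the lowest level per exon length, at 3.32 RPKM, and its groups overlapped at 10.98, 11.5 and 12.2 CPM with CTRL sh and from 9.08 to 11.04 CPM with CPSF1 sh (median 10.6, log2FC -0.17, adjusted p = 0.141). KIF2C, which takes microtubules apart at centromeres, was lower in LNCaP95 (log2FC -0.74, SE 0.084, adjusted p = 8.54e-06). KIF23 and KIF20A of the central spindle were lower there, with log2FC of -0.62 and -0.44, KIF11, which pushes spindle poles apart, at -0.31, and KIF4A at -0.20. KIF11 was also lower in LNCaP (log2FC -0.21, SE 0.088, adjusted p = 0.0474), and none of these 5 was called in 22Rv1.

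Of the spindle assembly factors, 5 of 6 were lower in LNCaP and all 6 in LNCaP95. DLGAP5, or HURP, which stabilises microtubules near chromosomes, was at 92.9, 90.5 and 91.1 CPM in the LNCaP controls and from 58.2 to 70.7 CPM (median 65.2) with knockdown (log2FC -0.50, SE 0.062, adjusted p = 7.27e-06). In LNCaP95 the gene stood at 146, 152 and 143 CPM with CTRL sh and from 66.2 to 90.2 CPM with CPSF1 sh (median 81.3, log2FC -0.89, SE 0.084, adjusted p = 2.21e-06). In 22Rv1, where it had the largest fall of any member, it was at 66.7, 67.0 and 68.0 CPM with CTRL sh and from 42.6 to 50.6 CPM with CPSF1 sh (median 47.8, log2FC -0.52, SE 0.065, adjusted p = 1.00e-04). The groups were apart in every line. HMMR, a hyaluronan receptor that also acts at spindle poles, was at 126, 123 and 112 CPM with CTRL sh and from 95.6 to 110.1 CPM with CPSF1 sh (median 103) in LNCaP (log2FC -0.23, SE 0.053, adjusted p = 0.00178). In LNCaP95 it was at 171, 197 and 176 CPM with CTRL sh and from 89.2 to 124 CPM with CPSF1 sh (median 98.2, log2FC -0.82, SE 0.099, adjusted p = 1.47e-05). In 22Rv1 it was at 149, 153 and 148 CPM with CTRL sh and from 103.8 to 144 CPM with CPSF1 sh (median 123, log2FC -0.29, SE 0.09, adjusted p = 0.027), again with no overlap in any line. TPX2, which activates Aurora A, was the exception in LNCaP, where it was higher with hairpins pooled (log2FC 0.15, SE 0.061, adjusted p = 0.0427). There CPSF1 sh2 was at 184, 169 and 167 CPM, while CPSF1 sh1, at 149, 149 and 154 CPM, overlapped the controls at 151, 141 and 147 CPM. In LNCaP95 TPX2 was lower (log2FC -0.43, SE 0.039, adjusted p = 1.38e-06). ASPM, NUSAP1 and PRC1 were lower in LNCaP, with log2FC of -0.36, -0.20 and -0.22 and in LNCaP95 at -0.51, -0.24 and -0.21.

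For cytokinesis, ECT2, the exchange factor that turns on RhoA at the cleavage furrow, was at 135, 135 and 141 CPM in the LNCaP controls and from 91.6 to 126 CPM (median 114) with knockdown (log2FC -0.31, SE 0.078, adjusted p = 0.003). In LNCaP95 the gene stood at 179, 191 and 184 CPM with CTRL sh and from 119 to 144 CPM with CPSF1 sh (median 127, log2FC -0.50, SE 0.065, adjusted p = 2.41e-05), and neither pair of groups overlapped. In 22Rv1 the gene stood at 251, 237 and 254 CPM with CTRL sh and from 206 to 248 CPM with CPSF1 sh (median 220.3), with overlap. ANLN, anillin, was higher in LNCaP (log2FC 0.20, SE 0.054, adjusted p = 0.005) and lower in LNCaP95 (log2FC -0.13, SE 0.04, adjusted p = 0.0136) and 22Rv1 (log2FC -0.15, SE 0.051, adjusted p = 0.0495). The calls in LNCaP95 and 22Rv1 were each lost in at least 1 alternative setting. RACGAP1, a partner of ECT2, was lower in LNCaP95 (log2FC -0.40, SE 0.039, adjusted p = 3.03e-06).

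**Figure D3:**
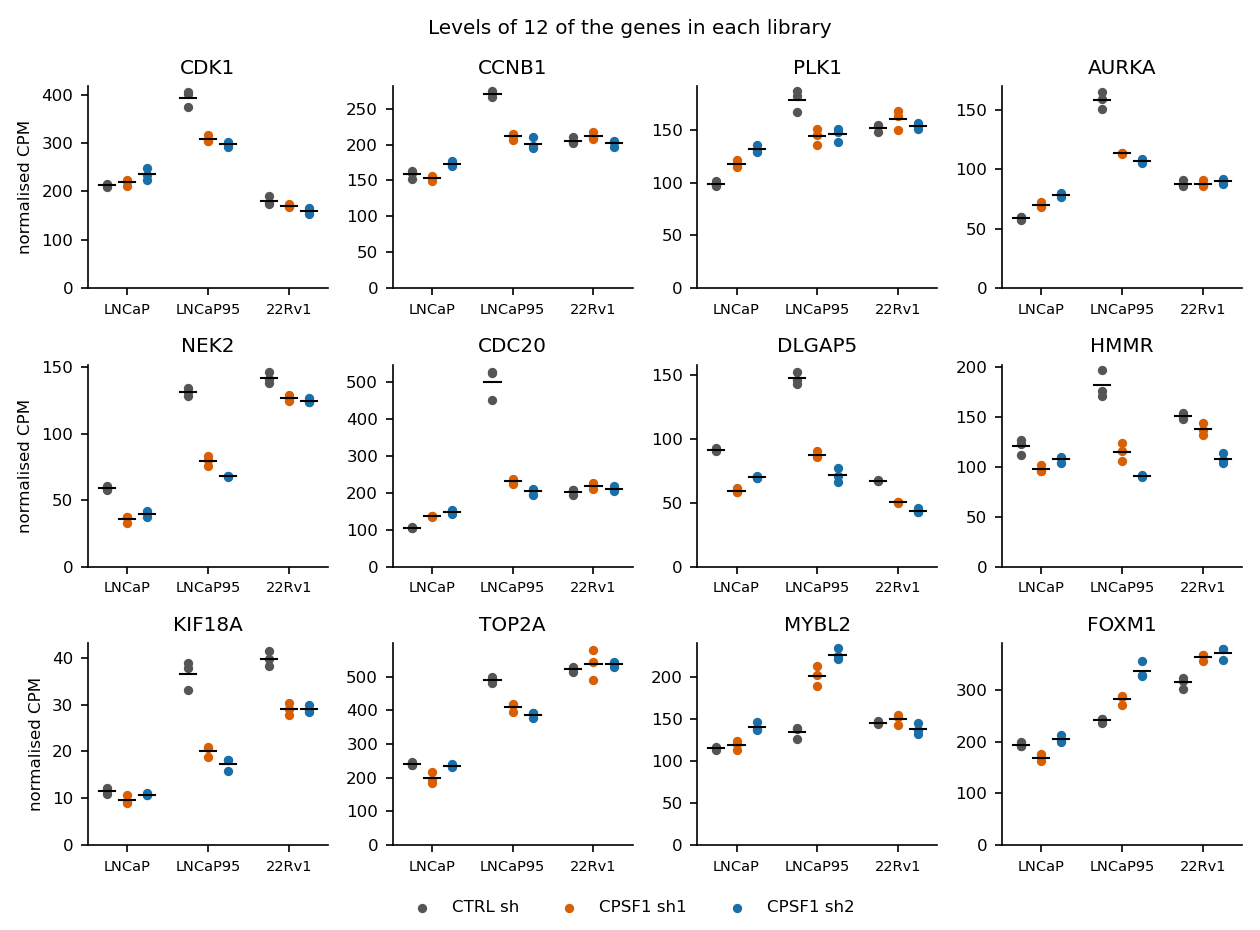
TMM-normalised CPM of 12 of the 56 genes in each library (points, with the mean of each group of 3 as a bar), by line and hairpin, normalised within each line. NEK2, DLGAP5 and HMMR lie lower with both hairpins in every line, CDC20, AURKA and PLK1 lie higher in LNCaP and lower in LNCaP95, and MYBL2 lies higher in LNCaP95.

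The 7 genes of chromosome structure stood near genes at large in LNCaP95, with 2 lower and 2 higher. These were 28.6% each way, beside 33.7% lower and 33.2% higher among all genes, and the median was 0.0037 beside 0.0013. MKI67, the Ki-67 antigen that coats mitotic chromosomes and serves as the usual marker of proliferation, was at 133, 126 and 127 CPM in the LNCaP95 controls and from 125 to 150.5 CPM (median 129.9) with knockdown (log2FC 0.044, adjusted p = 0.525). In LNCaP it was at 94.0, 98.1 and 97.3 CPM with CTRL sh and from 80.3 to 104.3 CPM with CPSF1 sh (median 95.9, log2FC -0.029, adjusted p = 0.722), and in 22Rv1 at 233, 218 and 208 CPM with CTRL sh and from 183 to 229 CPM with CPSF1 sh (median 209, log2FC -0.078, adjusted p = 0.361). The groups overlapped in all 3 lines. TOP2A, the topoisomerase that untangles sister chromatids, fell in LNCaP95 from 481, 489.5 and 499.6 CPM to a range from 377 to 419 CPM (median 394, log2FC -0.30, SE 0.043, adjusted p = 5.83e-05). In LNCaP the controls were at 246, 237 and 238 CPM, with 193, 186 and 218 CPM for CPSF1 sh1 and 241, 231 and 236 CPM for CPSF1 sh2, and in 22Rv1 the groups overlapped at 513, 524 and 529.5 CPM with CTRL sh and from 490.1 to 579 CPM with CPSF1 sh (median 541). Neither of these was called.

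The condensin subunits did not move together. SMC2, 1 of its paired ATPases, fell in 22Rv1 from 185, 189 and 179 CPM to a range from 121 to 156 CPM (median 134, log2FC -0.44, SE 0.063, adjusted p = 2.49e-04) and in LNCaP from 112, 107 and 106 CPM to a range from 83.4 to 101 CPM (median 98.4, log2FC -0.19, SE 0.062, adjusted p = 0.0142). In LNCaP95 it overlapped, at 88.5, 86.4 and 86.5 CPM with CTRL sh and from 81.2 to 92.2 CPM with CPSF1 sh (median 84.6). The other ATPase, SMC4, was higher in LNCaP95 (log2FC 0.20, SE 0.053, adjusted p = 0.00496), as was NCAPH (log2FC 0.19, SE 0.057, adjusted p = 0.0117), while NCAPG was lower (log2FC -0.12, SE 0.045, adjusted p = 0.034). The calls of NCAPH and NCAPG in LNCaP95 and of SMC2 in LNCaP were each lost in at least 1 alternative setting. NCAPD2 was not called, with log2FC of 0.14, 0.0037 and 0.10 in LNCaP, LNCaP95 and 22Rv1.

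The largest difference between lines was in CDC20, the activator of APC/C and the target of the spindle checkpoint. In LNCaP its controls were at 107, 103.5 and 103.6 CPM and its knockdown libraries from 134 to 154 CPM (median 139.7, log2FC 0.45, SE 0.047, adjusted p = 1.51e-06), the largest rise among members in that line. In LNCaP95 the controls were at 524, 449.7 and 526 CPM and the knockdown libraries from 195 to 238 CPM (median 217, log2FC -1.20, SE 0.067, adjusted p = 4.73e-08), the largest fall in any line. Neither pair of groups overlapped. In 22Rv1 they did, at 206, 207 and 193 CPM with CTRL sh and from 205 to 226 CPM with CPSF1 sh (median 214, log2FC 0.087, adjusted p = 0.161). PTTG1, securin, was at 90.5, 90.9 and 88.0 CPM in the LNCaP controls and from 63.5 to 83.1 CPM (median 69.9) with knockdown (log2FC -0.34, SE 0.071, adjusted p = 7.89e-04), and in LNCaP95 at 191, 186 and 196 CPM with CTRL sh and from 115 to 138 CPM with CPSF1 sh (median 127, log2FC -0.59, SE 0.063, adjusted p = 5.45e-06), without overlap. In 22Rv1 it overlapped, at 91.0, 95.6 and 95.01 CPM with CTRL sh and from 79.9 to 97.1 CPM with CPSF1 sh (median 88.2). PTTG1 and UBE2S have near-identical copies in the genome, which makes the split of their reads uncertain.

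Separase, the protease that PTTG1 holds back, went the other way. ESPL1, its gene, was at 90.3, 78.0 and 79.9 CPM in the LNCaP95 controls and from 99.7 to 119 CPM (median 108) with knockdown (log2FC 0.40, SE 0.064, adjusted p = 1.45e-04), with every knockdown library above the controls. In LNCaP (log2FC 0.18, adjusted p = 0.0772) and 22Rv1 (log2FC 0.082, adjusted p = 0.15) it was not called. UBE2C and UBE2S, the enzymes that start and extend the ubiquitin chains of APC/C, were lower in LNCaP95, with log2FC of -0.36 and -0.23. UBE2S was at 281, 263 and 289 CPM with CTRL sh and from 229 to 247 CPM with CPSF1 sh (median 236) there, at 189, 177 and 179 CPM with CTRL sh and from 185 to 214 CPM with CPSF1 sh (median 199) in LNCaP (log2FC 0.14, SE 0.051, adjusted p = 0.0306), and at 264, 272 and 278 CPM with CTRL sh and from 228 to 287 CPM with CPSF1 sh (median 259.8) in 22Rv1. Its groups were apart in LNCaP95 and overlapped in the other lines.

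The hairpins gave different pictures in LNCaP. With CPSF1 sh1, 32 members were lower and 6 higher than with CTRL sh, beside 31.3% and 31.2% of all genes. With CPSF1 sh2, 15 were lower and 20 higher, beside 32.5% and 32.1%. Tested directly, CPSF1 sh2 was above CPSF1 sh1 for 40 members and below it for 0, beside 6.53% and 8.24% of all genes, with a median difference of 0.21 and a higher estimate for 55 of the 56. The 0 held at an unadjusted p-value below 0.05 in edgeR and at an adjusted one in DESeq2, and BUB3 was the 1 member with a difference below zero, at -0.059 on the log2 scale. The largest difference was in CENPF, at 168, 171 and 187 CPM with CPSF1 sh1 and 211, 221 and 223 CPM with CPSF1 sh2, a log2 difference of 0.32 (SE 0.042, adjusted p = 4.12e-05). All libraries of CPSF1 sh2 lay above those of CPSF1 sh1 and below the controls. CPSF1 itself had log2 fold changes of -0.58 with CPSF1 sh1 and -0.72 with CPSF1 sh2 in LNCaP, a difference of -0.14 (SE 0.053, adjusted p = 0.0773).

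In LNCaP95 most members were lower with either hairpin. CPSF1 sh1 gave 44 members lower and 5 higher, beside 33.3% and 33.1% of all genes, and CPSF1 sh2 gave 45 and 5, beside 36.9% and 36.5%. CPSF1 sh2 was below CPSF1 sh1 for 18 members and above it for 2, beside 17.7% and 16.5% of all genes. The 2 were FOXM1 and MYBL2. FOXM1 was at 289, 272 and 287 CPM with CPSF1 sh1 and 328, 328 and 357 CPM with CPSF1 sh2, a difference of 0.26 (SE 0.042, adjusted p = 1.08e-04). HMMR had the largest difference downward, from 105, 124 and 116 CPM to 90.2, 91.2 and 89.2 CPM, a difference of -0.35 (SE 0.06, adjusted p = 1.88e-04). The hairpins did not overlap in either gene. The count of 2 became 4 without CTRL sh replicate 1, CTRL sh replicate 2 or CPSF1 sh2 replicate 2, and 1 without CPSF1 sh1 replicate 2 or CPSF1 sh2 replicate 3.

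In 22Rv1, CPSF1 sh1 gave 8 members lower and 4 higher, beside 11.1% and 8.79% of all genes, and CPSF1 sh2 gave 19 and 2, beside 20.9% and 19.1%. CPSF1 sh2 was below CPSF1 sh1 for 9 members and above it for 0, beside 5.85% and 5.47%, and the 0 held at an unadjusted p-value below 0.05 in edgeR and at an adjusted one in DESeq2. HMMR again differed most, at 144, 131 and 137 CPM with CPSF1 sh1 and 103.8, 106 and 114 CPM with CPSF1 sh2, a difference of -0.35 (SE 0.051, adjusted p = 5.10e-04), without overlap. Its values with CPSF1 sh1 were -0.13 on the log2 scale against the controls, and -0.48 with CPSF1 sh2. Without CPSF1 sh1 replicate 3 the 9 became 14, and without CPSF1 sh2 replicate 2 or CPSF1 sh2 replicate 3 they became 4 and 5. With CPSF1 sh1, the 4 higher became 1 without CTRL sh replicate 1 or CTRL sh replicate 2 and 7 without CPSF1 sh1 replicate 3, and the 8 lower became 5 without CTRL sh replicate 2. With CPSF1 sh2, the 2 higher became 1 without CTRL sh replicate 2, CTRL sh replicate 3, CPSF1 sh2 replicate 1 or CPSF1 sh2 replicate 3.

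**Figure D4:**
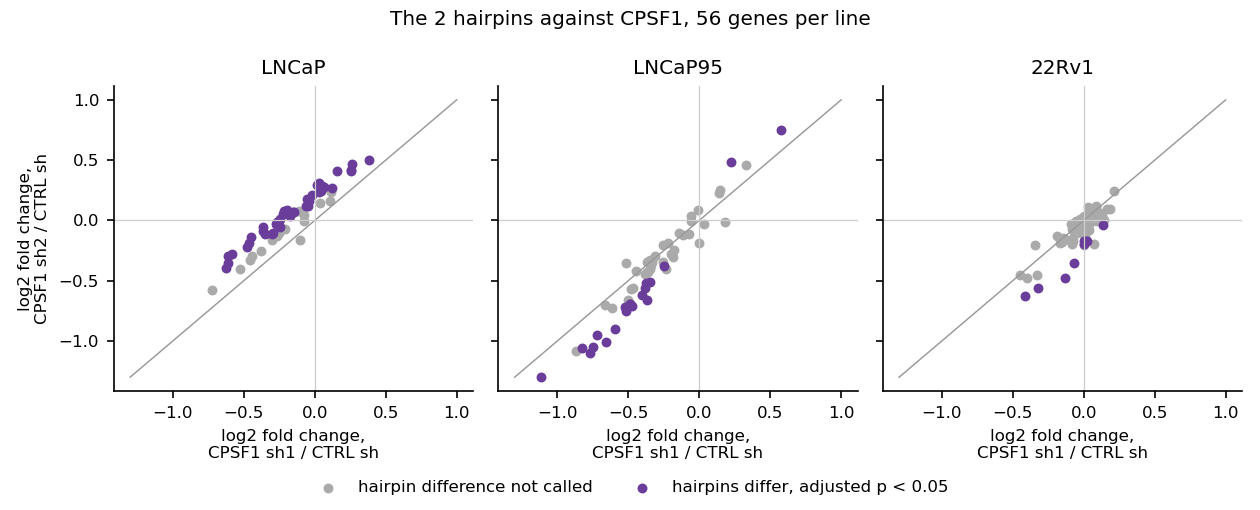
Log2 fold change of each of the 56 genes with CPSF1 sh2 (vertical) against that with CPSF1 sh1 (horizontal), per line, with purple points where the hairpins differ at an adjusted p-value below 0.05 and the diagonal marking equal change. In LNCaP 55 of 56 genes lie above the diagonal, while in LNCaP95 40 and in 22Rv1 42 lie below it; both axes share the CTRL sh libraries.

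The difference of the knockdown effect between lines was tested in a fit of all 27 libraries, in which 10317 genes were above 2 CPM throughout. The effect was lower in LNCaP95 than in LNCaP for 35 members and higher for 7, beside 28.5% and 31.2% of all genes. With libraries scaled by size alone, the genes called between LNCaP95 and LNCaP split into 4005 higher and 2229 lower in place of 3220 and 2944, and those between 22Rv1 and LNCaP95 into 2506 and 3956 in place of 3174 and 3185. The effect was higher in 22Rv1 than in LNCaP95 for 41 members and lower for 6, beside 30.8% and 30.9%. Between 22Rv1 and LNCaP, 13 were higher and 12 lower, beside 25.3% and 25.0%, shares near those of genes at large. CDC20 had the largest difference in the pair of LNCaP95 and LNCaP, at -1.63 (SE 0.061, adjusted p = 5.99e-20) on the log2 scale, and in the pair of 22Rv1 and LNCaP95, at 1.29 (SE 0.058, adjusted p = 1.08e-17). CENPF had the largest between 22Rv1 and LNCaP, at 0.54 (SE 0.07, adjusted p = 1.60e-07). MYBL2 and FOXM1 differed from most members in sign, with an effect higher in LNCaP95 than in LNCaP by 0.51 and 0.43 on the log2 scale. For 15 members, CDK1, PLK1, AURKA, NEK2 and CDC20 among them, the effect differed in all 3 pairs, beside 19.9% of all genes, and for the 3 members SPC24, KIF11 and MKI67 it was called in none, beside 17.8%. The knockdown of CPSF1 itself was not equal between lines in this fit. It was lower in LNCaP95 than in LNCaP by a log2 difference of -0.22 (SE 0.096, adjusted p = 0.0476). Between 22Rv1 and LNCaP it was not called (0.16, SE 0.093, adjusted p = 0.144). The part of unequal knockdown in these differences was not tested.

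The lines also differed before any knockdown. With CTRL sh, 49 members were higher in LNCaP95 than in LNCaP and 2 (SMC2 and SMC4) were lower, beside 41.0% and 39.3% of all genes, with a median difference of 0.73. In 22Rv1, 50 were higher than in LNCaP and 4 lower, beside 41.1% and 41.4%, with a median of 0.71. Between 22Rv1 and LNCaP95, 23 were higher and 23 lower, beside 42.2% and 42.1%, and the median was -0.0019. The 2 lower in LNCaP95 than in LNCaP became 4 without LNCaP95 CTRL sh replicate 2. CDC20 averaged 107 CPM in LNCaP, 505 CPM in LNCaP95 and 207 CPM in 22Rv1 controls, when normalised over all 27 libraries. The log2 difference was 2.23 (SE 0.05, adjusted p = 8.02e-27) for LNCaP95 minus LNCaP and -1.28 (SE 0.047, adjusted p = 1.13e-21) for 22Rv1 minus LNCaP95.

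On the same log2 scale, CDK1 differed by 0.87 (SE 0.041, adjusted p = 1.47e-18) for LNCaP95 minus LNCaP and by -0.24 (SE 0.042, adjusted p = 4.56e-06) for 22Rv1 minus LNCaP. CDK1, CKS2, SPC25 and DLGAP5 were the 4 members lower in 22Rv1 than in LNCaP, DLGAP5 by the most, at -0.45 (SE 0.047, adjusted p = 3.66e-10). ASPM, which focuses spindle poles, was higher in 22Rv1 than in LNCaP by 1.99 (SE 0.095, adjusted p = 1.46e-18), the largest difference of that pair. MKI67 was higher in 22Rv1 than in LNCaP by 1.19 (SE 0.063, adjusted p = 2.29e-17) and in LNCaP95 than in LNCaP by 0.40 (SE 0.065, adjusted p = 2.18e-06). TOP2A was higher than in LNCaP by 1.00 (SE 0.047, adjusted p = 1.54e-18) in LNCaP95 and by 1.12 (SE 0.047, adjusted p = 6.54e-20) in 22Rv1. PTTG1 and CDC25C were the 2 members with no call between 22Rv1 and LNCaP. Per exon length, the members spanned 3.32 to 152 RPKM in the LNCaP controls (median 23.8), 8.84 to 248 RPKM in LNCaP95 (median 48.6) and 6.59 to 223 RPKM in 22Rv1 (median 42.2). CKS2, CDC20 and UBE2S were the highest members in the 3 lines in that order, and KIF18A, SPC25 and SPC25 the lowest.

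Genes of the same processes outside the 56 were drawn from 7 lists, which were also chosen with earlier results of these data known. The shares to read them against are those of all genes tested, which were 33.7% lower and 33.2% higher in LNCaP95. In LNCaP they were 31.0% lower and 31.1% higher, and in 22Rv1 14.3% lower and 12.7% higher. Of 40 other genes that peak in G2 and mitosis, 28 were lower and 5 higher in LNCaP95 (median -0.26), 11 and 12 in LNCaP (median 0.054), and 9 and 2 in 22Rv1 (median -0.053). These were 70% lower and 12.5% higher in LNCaP95, shares near those of genes at large in LNCaP (27.5% and 30%), and 22.5% and 5% in 22Rv1. PSRC1, a spindle protein, had the largest fall in LNCaP95 (log2FC -1.21, SE 0.12, adjusted p = 3.46e-06) and TRIP13, which recycles MAD2, the largest rise (log2FC 0.50, SE 0.044, adjusted p = 1.25e-06). In LNCaP the extremes were KIF14 (log2FC -0.66, SE 0.081, adjusted p = 5.80e-06) and DEPDC1 (log2FC 0.77, SE 0.13, adjusted p = 1.64e-04). In 22Rv1 the largest called fall was HMGB2 (log2FC -0.62, SE 0.097, adjusted p = 4.44e-04) and the largest called rise SPAG5 (log2FC 0.15, SE 0.04, adjusted p = 0.0113). The 16 APC/C subunits and regulators gave 6 lower and 5 higher in LNCaP95, 4 and 6 in LNCaP, and 0 and 1 in 22Rv1, where edgeR gave 7 lower at an unadjusted p-value below 0.05. In LNCaP95 that was 37.5% lower and 31.3% higher, near genes at large, and in LNCaP 25% and 37.5%. ANAPC7 was the largest called rise in all 3 lines, with log2FC of 0.37, 0.63 and 0.12 in LNCaP, LNCaP95 and 22Rv1. ANAPC10 was the largest called fall in LNCaP (log2FC -0.40) and LNCaP95 (log2FC -0.54).

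The 27 other kinetochore genes gave 7 lower and 9 higher in LNCaP95, 6 and 6 in LNCaP, and 7 and 0 in 22Rv1, where edgeR gave 1 higher at an unadjusted p-value below 0.05. The shares were 25.9% lower and 33.3% higher in LNCaP95, 22.2% and 22.2% in LNCaP, and 25.9% and 0% in 22Rv1. HJURP, the chaperone of CENPA, was the largest fall in LNCaP95 (log2FC -0.71, SE 0.057, adjusted p = 6.27e-07) and SKA3, which couples kinetochores to microtubules, the largest rise (log2FC 0.89, SE 0.077, adjusted p = 1.11e-06). CENPL (log2FC 1.37, SE 0.10, adjusted p = 4.39e-08) and CENPC (log2FC -0.62, SE 0.092, adjusted p = 3.72e-05) were the extremes in LNCaP, and CENPK (log2FC -0.43, SE 0.094, adjusted p = 0.00383) the largest fall in 22Rv1. Cohesin and its regulators, 14 genes, gave 5 lower and 7 higher in LNCaP95, 1 and 2 in LNCaP, and 1 and 0 in 22Rv1, where edgeR also gave 0 higher at an unadjusted p-value below 0.05. The shares were 35.7% lower and 50% higher in LNCaP95, 7.14% and 14.3% in LNCaP, and 7.14% and 0% in 22Rv1. ESCO2, which acetylates cohesin in S phase, was higher in LNCaP95 (log2FC 0.58, SE 0.11, adjusted p = 4.32e-04) and lower in 22Rv1 (log2FC -0.22, SE 0.068, adjusted p = 0.0268). NIPBL, the cohesin loader, was the largest fall in LNCaP95 (log2FC -0.37), and RAD21 (log2FC -0.22) and CDCA5 (log2FC 0.27) were the extremes in LNCaP.

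The 16 MuvB, DREAM and RB family regulators of mitotic genes gave 5 lower and 6 higher in LNCaP95, 3 and 6 in LNCaP, and 2 and 2 in 22Rv1. The shares were 31.3% lower and 37.5% higher in LNCaP95, 18.8% and 37.5% in LNCaP, and 12.5% and 12.5% in 22Rv1, near genes at large in LNCaP95 and 22Rv1. MYBL1, a relative of MYBL2, was the largest rise in LNCaP (log2FC 1.27, SE 0.13, adjusted p = 1.18e-06), LNCaP95 (log2FC 1.34, SE 0.079, adjusted p = 6.57e-08) and 22Rv1 (log2FC 0.39, SE 0.10, adjusted p = 0.0128). TFDP2 (log2FC -0.55), LIN37 (log2FC -0.54) and RBL1 (log2FC -0.32) were the largest falls in LNCaP, LNCaP95 and 22Rv1. The brakes on mitotic entry gave 2 lower and 4 higher of 9 genes tested in LNCaP, 5 and 2 of 10 in LNCaP95, and 2 and 2 of 11 in 22Rv1. With so few genes these were 22.2% and 44.4%, 50% and 20%, and 18.2% and 18.2%. CDKN1A, the p21 inhibitor of cyclin-dependent kinases, rose in LNCaP from 210.4 ± 12.3 CPM (SD, n = 3) to 608 ± 42.6 CPM (n = 6) (log2FC 1.53, SE 0.059, adjusted p = 5.65e-11) and in 22Rv1 from 104.3 ± 4.99 CPM to 249 ± 55.3 CPM (log2FC 1.26, SE 0.15, adjusted p = 8.25e-05). In LNCaP95, where most members were lower, CDKN1A changed from 308 ± 17.4 CPM to 359.9 ± 21.5 CPM (log2FC 0.23, SE 0.056, adjusted p = 0.00327). PKMYT1 (log2FC 0.66) and CDKN1C (log2FC -1.63) were the extremes there, CDKN1B (log2FC -0.37) was the largest fall in LNCaP and SFN (log2FC -0.51) in 22Rv1.

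The G1/S replication genes act before G2 in the cycle and are given for comparison. Of 24 tested, 20 were higher and 1 lower in LNCaP95, with a median of 0.66, and CCNE2 had the largest rise (log2FC 1.39, SE 0.14, adjusted p = 4.27e-06) and SLBP the 1 fall (log2FC -0.14, SE 0.055, adjusted p = 0.0434). In LNCaP 9 were higher and 3 lower (median 0.11), with CCNE1 (log2FC 0.47) and RFC4 (log2FC -0.35) at the ends, and in 22Rv1 9 were lower (median -0.074), MCM5 the most (log2FC -0.42, SE 0.051, adjusted p = 7.96e-05), and 0 higher, also at an unadjusted p-value below 0.05 in edgeR. The shares were 4.17% lower and 83.3% higher in LNCaP95, 12.5% and 37.5% in LNCaP, and 37.5% and 0% in 22Rv1.

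**Figure D5:**
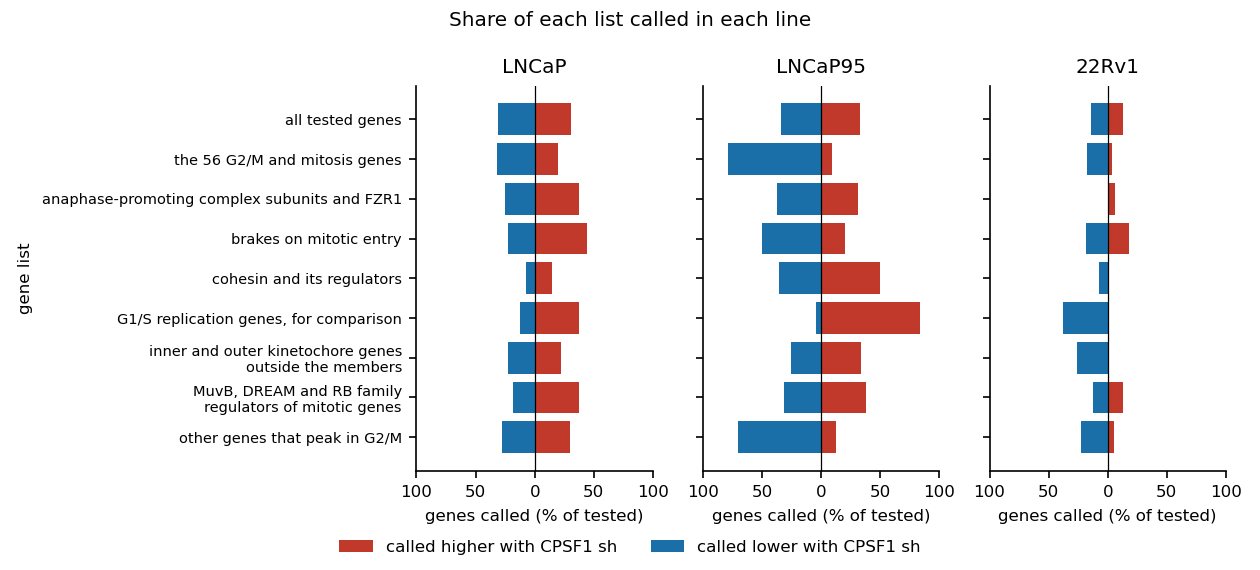
Percent of the tested genes of each list called higher (red, right) or lower (blue, left) with CPSF1 sh in each line, with all tested genes at the top. In LNCaP95, 78.6% of the 56 genes are called lower and 20 of the 24 G1/S genes are called higher, and both lists sit nearer to all genes in LNCaP.

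Members with and without the CHR letters in their promoter window were also set side by side, as a description. In LNCaP95 the 33 members with the letters had a median log2 fold change of -0.31, ranging from -1.20 to 0.40, and the 15 without had a median of -0.58, ranging from -0.92 to 0.66. In LNCaP the medians were -0.12 and -0.10, and in 22Rv1 -0.058 and -0.082. CDC20 and ESPL1, at the 2 ends of the first range, both hold the letters in the stretches printed above, and MYBL2, at the upper end of the second, has none in its window.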

How the data were processed

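Poly(A)-selected, stranded RNA-seq libraries were made from 27 samples in 9 groups of 3. The deposited table holds raw counts per gene: per the labels and the study's methods, the authors aligned reads to GRCh37 with HISAT2 and counted them on the reverse strand over Ensembl exons with featureCounts of the Subread package. The submitters' processing notes list HISAT2 2.1.0 and Subread 2.0.3. Rows are gene symbols, so reads of near-identical copies cannot be checked. Counts per library ranged from 8515624 to 15904518, and counting error and replicate spread set the precision. Between replicates, chi-square per degree of freedom, which grows with spread beyond counting error, ran from 1.38 to 6.98. The highest values were for 22Rv1 CPSF1 sh1 replicates 1 and 3 (6.98), LNCaP95 CTRL sh replicates 1 and 2 (5.03) and 22Rv1 CPSF1 sh1 replicates 2 and 3 (4.37).

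Counts were tested with edgeR 4.0.16 (R 4.3.3, limma 3.58.1) by its quasi-likelihood F-test in the earlier form, with TMM scaling, on genes above 2 CPM in every library of the fit. CPSF1 sh (6 libraries) was set against CTRL sh (3) within each line with hairpins pooled, then by hairpin, and between lines in 1 fit of all 27 libraries. With hairpins pooled, the difference between hairpins was part of the spread that the test measured. The fits by hairpin and of all 27 libraries kept the groups apart, so their p-values measure the spread within groups only. Adjusted p-values are Benjamini-Hochberg over all genes tested, with a threshold of 0.05. Alternatives were DESeq2 1.42.0, the current edgeR form, other scalings and filters, a replicate block, each hairpin alone, a 2-fold condition, and each library left out. The scripts were tested on simulated data. RPKM used the CPM of all 27 libraries and the exon length in the table.

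The 56 genes and the other lists were chosen with earlier results of these data known. Genes named are the 56, CPSF1, and the largest called rise and fall of each other list in each line. Genes given library by library are the 2 largest rises and falls of each line, those lower in all lines, those whose effect differed in all pairs of lines or most in a pair, those with the largest difference between hairpins, and CDK1, CCNB1, PLK1, TOP2A and MKI67. PECAM1 and UHRF1 were not used here. Of 8 genes with more than 1 promoter entry, the first in the table was taken.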

Additional observations from a re-analysis of the deposited data

Results flagged for a closer look

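Differences of the knockdown effect between cell lines, each tested as a contrast in the edgeR fit of all 27 libraries, gave the following values. The effect on the 56 genes was lower in LNCaP95 than in LNCaP for 35 and higher for 7, beside 28.5% and 31.2% of all genes. It was higher in 22Rv1 than in LNCaP95 for 41 and lower for 6, beside 30.8% and 30.9%. Between 22Rv1 and LNCaP it was higher for 13 and lower for 12, beside 25.3% and 25.0%, shares near those of genes at large. For 15 genes the effect differed in all 3 pairs, beside 19.9% of all genes. The widest pair of each is given here as a log2 difference. LNCaP95 minus LNCaP was widest for CDC20 (-1.63), AURKA (-0.84), KIF18A (-0.78), CDCA8 (-0.76), PLK1 (-0.62), CDK1 (-0.45) and UBE2S (-0.34), and for FOXM1 (0.43) in the other direction. 22Rv1 minus LNCaP95 was widest for BUB1 (0.85), NEK2 (0.65), PTTG1 (0.49), CKS1B (0.40) and ECT2 (0.36), and for MYBL2 (-0.69) and SMC2 (-0.41) downward. CENPF had the widest difference between 22Rv1 and LNCaP, at 0.54. LNCaP95 cells were also grown in another medium than the other lines, and line and medium cannot be told apart. CPSF1 itself was lowered more in LNCaP95 than in LNCaP, by a log2 difference of -0.22 (SE 0.096, adjusted p = 0.0476). The part of unequal knockdown was not tested.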

How the results depend on the processing

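In LNCaP95 the count of genes called lower stayed within 1.5 times its main value in every alternative but the 2-fold condition, and 46 of its 49 calls were kept in every other setting, beside 20 of 29 in LNCaP and 6 of 12 in 22Rv1. No called gene changed sign. In LNCaP the counts differed by hairpin: with CPSF1 sh1 alone 32 genes were lower and 6 higher with a median of -0.2075, and with CPSF1 sh2 alone 21 were higher and the median was 0.02483. In 22Rv1, CPSF1 sh1 alone gave 6 lower and a median of 0.01253, and CPSF1 sh2 alone gave 25 lower, 4 higher and a median of -0.07753. These fits of a hairpin alone left out the libraries of the other hairpin. Their counts can thus differ from those given by hairpin in the Results, where both were fitted together. Without a filter beyond 1 count, LNCaP had 7 higher and 22Rv1 had 1. With filterByExpr 22Rv1 had 1 higher and the contrast of knockdown effects between LNCaP95 and LNCaP had 4 higher. The LNCaP95 median was -0.2983 with library size alone, -0.4261 with filterByExpr, -0.4344 without a filter and -0.3546 with CPSF1 sh1 alone. Library size alone also gave 4 higher in 22Rv1 and 4 controls lower in LNCaP95 than in LNCaP. Hairpins as separate groups gave 4 higher in 22Rv1, and DESeq2 gave 2 higher there for CPSF1 sh1 against CTRL sh. A change over 2-fold as well left 0 genes higher and 0 lower in LNCaP and in 22Rv1, 0 higher and 1 lower in LNCaP95, and no estimate in LNCaP or 22Rv1 passed 2-fold whatever its p-value in edgeR. The cause of these shifts was not tested.

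With 1 library left out at a time, the ranges were 6 to 15 higher and medians of -0.1132 to -0.04336 in LNCaP, and 1 to 5 higher, 6 to 13 lower and medians of -0.06354 to -0.02742 in 22Rv1. For the hairpins they were 1 to 4 higher for CPSF1 sh2 minus CPSF1 sh1 in LNCaP95, and in 22Rv1 1 to 7 higher and 5 to 11 lower for CPSF1 sh1, 1 to 3 higher for CPSF1 sh2, and 4 to 14 lower for CPSF1 sh2 minus CPSF1 sh1. Controls lower in LNCaP95 than in LNCaP ranged from 2 to 4. Correlations of deviations between libraries of the same replicate number ran from -0.057 to 0.25 in LNCaP, -0.24 to 0.28 in LNCaP95 and -0.11 to 0.20 in 22Rv1, with 3, 3 and 1 of 9 above 0.1, and between different numbers from -0.25 to 0.067, -0.30 to 0.23 and -0.29 to 0.26. As some same-number pairs were below 0.1, the numbers were not taken to pair the libraries. With the replicate number as a block, LNCaP had 10 genes higher and 16 lower, LNCaP95 had 5 and 43, and 22Rv1 had 1 and 8. With 3 libraries per group, small changes such as those in 22Rv1 lie near the threshold, and a gene without a call is not shown to be unchanged.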
